A study of Mus musculus with 32 samples.

Results

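Ribosome footprints were measured in neural stem cells (NSCs) treated with interferon-β (IFN-β) or with vehicle. As a share of all footprints, 146 genes were lower with IFN-β after 2 h and higher after 14 h. They were chosen from the footprint values themselves. In each library the footprint count of a gene was divided by the library's total and multiplied by 1000000, which gives its CPM, and the rule value of a time is the log2 of the mean IFN-β CPM plus 0.5 over the mean vehicle CPM plus 0.5. A gene was taken when this value was -0.4 or less at 2 h and 0.4 or more at 14 h, with a mean of at least 50 footprint counts per library at both times. This gave 146 of the 9944 genes that reached 50 counts (1.47%), out of 23035 in the footprint tables. They are called reversing genes below. Because these values chose them, all footprint values of the reversing genes are a description and carry no test. The total RNA libraries, which the choice did not use, were tested. They came from the same lysates as the footprints, so they are not independent of the choice.

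The study asked how NSCs answer a type I interferon at the level of RNA and of translation. It reported an early rise and a later strong fall of global protein synthesis under IFN-β. CPM are shares of a library, so such a change in total output is not seen in them. NSCs were isolated from the ventricular-subventricular zone (vSVZ), the stem cell niche along the brain's lateral ventricles, of C57BL/6 mice aged 8 to 12 weeks, and were grown ex vivo. At 48 h after seeding they were treated with IFN-β, or with its vehicle, for 2 h or 14 h, and all cultures, vehicle included, were given cycloheximide at 0.1 mg/ml for 5 minutes before lysis to hold ribosomes on their mRNA. Each of the 4 groups (vehicle 2 h, IFN-β 2 h, vehicle 14 h, IFN-β 14 h) held 4 replicates. Those of 2 h carry the numbers 2, 3, 5 and 6 and those of 14 h the numbers 1 to 4, with 1 footprint and 1 total RNA library each, 32 libraries in all. The cells are wild-type stem cells in culture, away from the niche. By the study's methods, replicates are cultures from different mice. The long exposure is 14 h by the labels and is called 16 h in other places. The times also differ in replicate numbers and in table, so time and batch cannot be told apart where 14 h is set against 2 h.

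IFN-β binds a receptor on the cell surface that signals to the nucleus and switches on interferon-stimulated genes (ISGs), many of which encode antiviral proteins. A ribosome protects the short stretch of mRNA that it is reading, so the number of footprints on a coding sequence follows both how much mRNA there is and how densely ribosomes occupy it. In adult NSCs the balance between dormancy and division is known to be set by niche signals such as Notch and Wnt, by brakes on growth such as the inhibitors of mTOR, and by metabolic state.

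The libraries carried the marks of NSCs and of the treatment. Footprint totals ranged from 2956297 to 10505108 and total RNA totals from 1370008 to 7877753. Footprints of Sox2, a stem cell factor, stood between 262 and 497 CPM with vehicle at 2 h and between 259 and 411 CPM with IFN-β, and Nes, Sox9, Vim and Fabp7 were read in every library. A list of ISGs had median rule values of 4.40 at 2 h and 6.24 at 14 h, and cytoskeletal Actb had -0.07 and -0.11. Of 12 microglial markers 5 were at 0 in all 16 footprint libraries, as were 2 of 12 ependymal and 1 of 12 neuronal markers. The summed ependymal markers stood between 35.5 and 49.1 CPM with vehicle and between 91.8 and 111 CPM with IFN-β at 14 h, and the endothelial markers between 16.1 and 21.3 CPM and between 44.7 and 57.4 CPM. Mural markers had 278 to 335 CPM with vehicle and 354 to 401 CPM with IFN-β at 14 h, microglial markers 90.9 to 103 CPM and 107 to 120 CPM, and neuronal markers 87.9 to 96.2 CPM and 73.4 to 79.8 CPM. At 2 h the ranges of these lists overlapped between the treatments. Their part in the results was not tested. In such bulk samples fewer cells of a type and less RNA per cell cannot be told apart. In total RNA a single gene, Myo3a, took 4.60% to 18.6% of the counts at 2 h and 5.45% to 39.3% at 14 h.

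**Figure D1:**
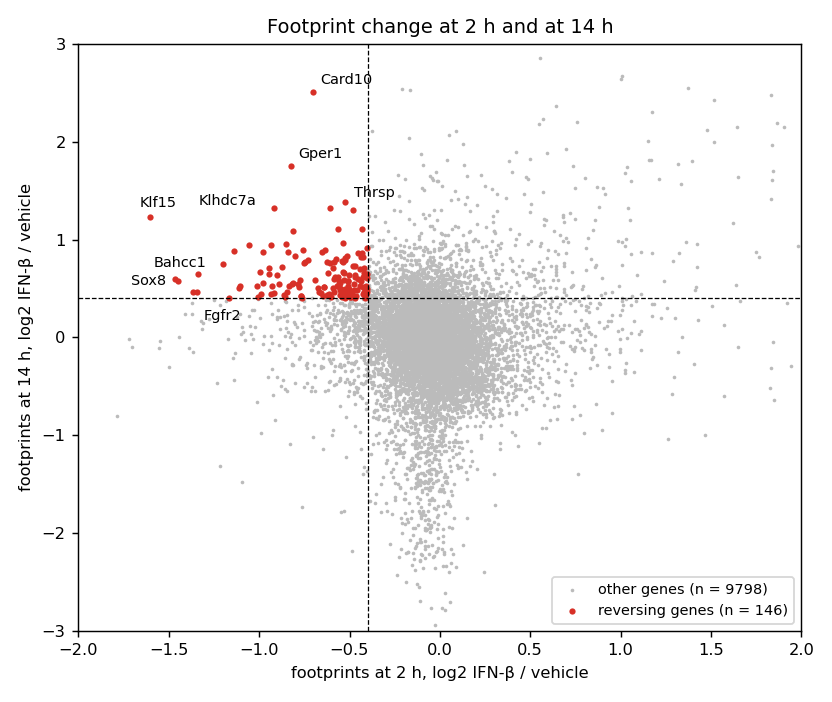
Rule values of all genes with 50 or more footprint counts at both times, with the log2 of IFN-β over vehicle at 2 h on the horizontal axis and at 14 h on the vertical axis. Dashed lines mark -0.4 and 0.4, the 146 reversing genes fill the corner at upper left, and 105 genes lie outside the plotted range.

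In the plot of rule values the reversing genes are the overlap of a rare change and a common one. Of the 9944 genes 615 reached -0.4 at 2 h (6.18%) and 1297 reached 0.4 at 14 h (13.0%), and the reversing genes were 23.7% of the first and 11.3% of the second. The opposite corner, higher at 2 h and lower at 14 h, held 69 genes. Lower at both times were 72 genes and higher at both 269. The median rule value of the reversing genes was -0.57 at 2 h, with a range of -1.60 to -0.40, and 0.57 at 14 h, with a range of 0.40 to 2.51. These medians correspond to a mean vehicle CPM 1.49 times that of IFN-β at 2 h and a mean IFN-β CPM 1.48 times that of vehicle at 14 h. Only 14 reached -1 at 2 h and 10 reached 1 at 14 h. Between the values at 2 h and at 14 h the Spearman correlation was -0.04 over all 9944 genes, which share their libraries. Over the 146 genes it was -0.09, within the range that the rule left, so nothing is read from it.

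Many of the 146 lay near a limit of the rule. At 2 h 41 had a value above -0.5, and at 14 h 49 had a value under 0.5. Just inside the limit at 2 h were Srl with -0.402 and Efs with -0.403, and just outside were Tmem104 with -0.399 and Ogfod2 with -0.398. Just inside the limit at 14 h were Pnmal2 with 0.402 and Fbxo44 with 0.404, and just outside were Prickle2 with 0.398 and Wwc1 with 0.397.

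**Figure D2:**
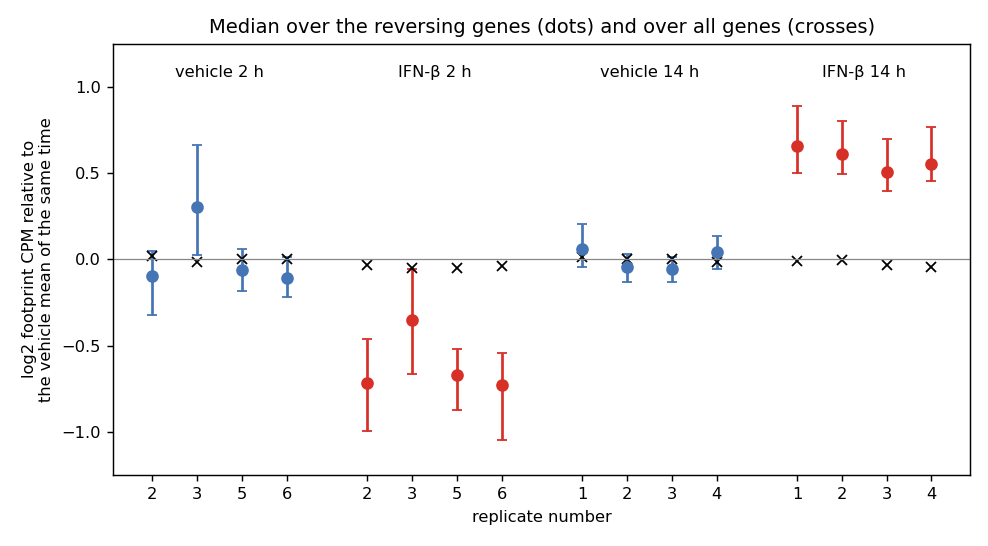
Median over the 146 reversing genes, in each of the 16 footprint libraries, of log2 footprint level relative to the vehicle mean of the same time. Blue dots (vehicle) and red dots (IFN-β) are medians with bars from the lower to the upper quartile, crosses are the median of all 9944 genes, and the IFN-β libraries lie below the vehicle libraries of their own pair at 2 h and above them at 14 h.

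Replicate 3 at 2 h stood apart from its group in these genes, under both treatments. Relative to the vehicle mean, the median reversing gene was at -0.10, 0.31, -0.06 and -0.11 in vehicle replicates 2, 3, 5 and 6 and at -0.71, -0.35, -0.67 and -0.73 with IFN-β in the same order. The same median at 14 h was at 0.06, -0.05, -0.05 and 0.04 with vehicle in replicates 1 to 4 and at 0.66, 0.61, 0.51 and 0.56 with IFN-β. The median of all genes stayed between -0.05 and 0.02 in every library. Replicate 3 was the highest vehicle library at 2 h for 98 of the 146 genes (38.1% of all 9944) and the highest IFN-β library for 94 (39.6%). Within each same-number pair at 2 h the median difference was -0.57, -0.65, -0.63 and -0.62, so the pair of replicate 3 differed by as much as the others. Its part in which genes met the rule is given by leaving it out. Without both its libraries 156 genes met the rule, 132 of them among the 146. Without its vehicle library alone 111 did, 99 of them among the 146, and without its IFN-β library alone 253 did, 133 of them among the 146.

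By pairs and by groups the picture differed at 2 h. IFN-β was lower than vehicle in 4 of 4 same-number pairs at 2 h for 145 of the 146, where 29.8% of all genes were. The exception was Camta2. It was higher in 4 of 4 pairs at 14 h for 145, where 32.9% of all genes were, with Arhgef17 as the exception. All 4 IFN-β libraries lay below all 4 vehicle libraries at 2 h for 67 genes (7.05% of all genes), and above them at 14 h for 126 (22.1%). Both held for 57. In edgeR's quasi-likelihood fit of the footprints, with Benjamini-Hochberg adjustment, 47 of the 146 were called lower at 2 h, where 2.01% of all genes tested were called lower and 5.25% higher. At 14 h 145 were called higher, where 26.2% of all genes were called higher and 26.3% lower. The rule used these contrasts, so nothing is read from these shares. With the replicate number as a block, 142 of the 146 were called lower at 2 h, where 13.4% of all genes were, and 146 higher at 14 h, where 31.8% were.

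**Figure D3:**
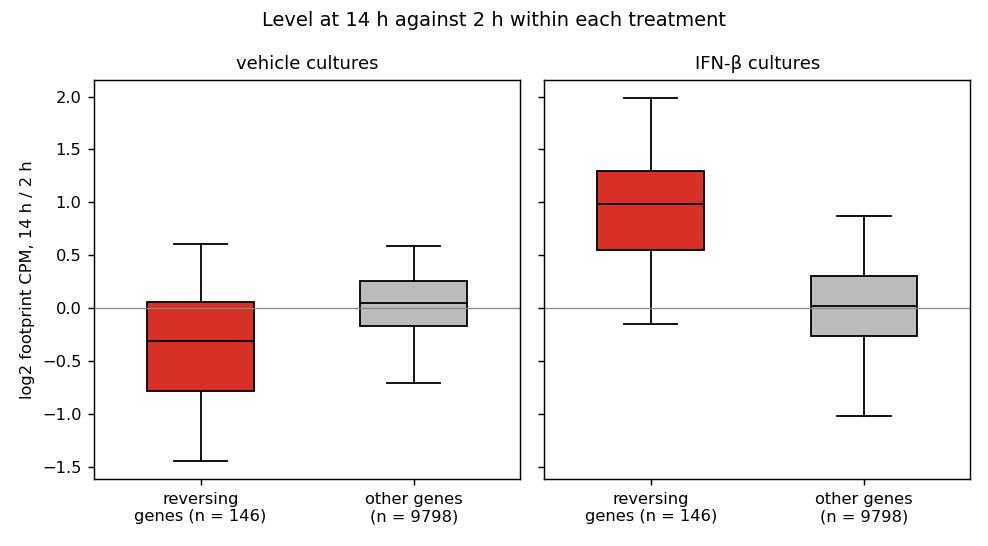
Log2 footprint level at 14 h over that at 2 h, within vehicle and within IFN-β, for the 146 reversing genes and the other 9798 genes. Boxes span the quartiles with the median as a line, and whiskers reach from the 5th to the 95th percentile, with the reversing genes below 0 in vehicle and above 0 in IFN-β at the median.

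Set within each treatment, the change with time ran in opposite directions in the vehicle and the IFN-β libraries. The vehicle level at 14 h over that at 2 h had a median log2 of -0.31 over the reversing genes, and 0.05 over all genes. The IFN-β level at 14 h over that at 2 h had a median log2 of 0.98, and 0.03 over all genes. The vehicle level was lower at 14 h for 106 of the 146, or 72.6%, where 43.3% of all genes were, and the IFN-β level was higher for 136, or 93.2%, where 52.7% were. The rule raises the IFN-β value and lowers the vehicle value by its construction, so these shares are a description.

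The reversing genes took 3 routes through the 4 groups, the only ones that the rule allows. A higher vehicle level with a lower IFN-β level at 14 h, seen in 22.7% of all genes, cannot meet it. In 96 (65.8%, against 18.7% of all genes) the vehicle level was lower and the IFN-β level higher at 14 h than at 2 h. Their median log2 values were -0.54 and 0.83. In 40 (27.4%, against 34.0%) both levels were higher at 14 h, with medians of 0.27 and 1.52. In 10 (6.85%, against 24.6%) both were lower at 14 h, with medians of -1.52 and -0.20. These were Nat8f1, Fgfr2, Ttyh2, Nrn1, Omg, Kcnj10, Pdk2, Btg2, Pygb and Itgb5. Because the rule shapes these shares, they are a description. In this last set the mean vehicle level at 2 h was the highest of the 4 groups, and IFN-β was lower at 14 h by less than vehicle was. Without vehicle replicate 3 the 2 h rule values of Omg, Kcnj10, Btg2 and Pygb changed sign, and those of Fgfr2, Pdk2 and Itgb5 did not. Time and batch cannot be told apart in these levels.

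Klf15 and Sox8 were among the 15 genes with the widest reversal, and their promoters are shown here because both hold a hexamer that factors of the clock and Myc families are known to read. Promoter windows of 300 bases, from 250 before to 50 after the start of transcription, were taken from RefSeq on GRCm38.p6 for the 122 reversing genes that matched by symbol and chromosome, and for 7896 of the 9944 genes. The letters CACGTG, an E-box, are in capitals in the next 3 sequences, each written 5′ to 3′ on the strand of its gene. Klf15 is on the plus strand at chr6:90462326-90462625, Sox8 on the minus strand at chr17:25570637-25570936, and Bhlhe41, itself an E-box repressor of the clock, on the minus strand at chr6:145865371-145865670.
Klf15: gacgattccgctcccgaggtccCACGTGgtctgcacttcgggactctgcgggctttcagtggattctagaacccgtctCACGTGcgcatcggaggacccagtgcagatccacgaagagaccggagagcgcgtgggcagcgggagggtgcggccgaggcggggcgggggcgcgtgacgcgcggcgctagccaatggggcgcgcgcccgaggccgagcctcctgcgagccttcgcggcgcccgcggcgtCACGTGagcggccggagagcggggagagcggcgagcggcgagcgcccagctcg
Sox8: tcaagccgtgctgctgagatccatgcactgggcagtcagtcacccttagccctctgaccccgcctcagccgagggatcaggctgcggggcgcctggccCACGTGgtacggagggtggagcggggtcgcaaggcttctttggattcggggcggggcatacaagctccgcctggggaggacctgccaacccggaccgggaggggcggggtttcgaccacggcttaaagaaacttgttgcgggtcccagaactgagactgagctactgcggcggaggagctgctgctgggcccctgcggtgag
Bhlhe41: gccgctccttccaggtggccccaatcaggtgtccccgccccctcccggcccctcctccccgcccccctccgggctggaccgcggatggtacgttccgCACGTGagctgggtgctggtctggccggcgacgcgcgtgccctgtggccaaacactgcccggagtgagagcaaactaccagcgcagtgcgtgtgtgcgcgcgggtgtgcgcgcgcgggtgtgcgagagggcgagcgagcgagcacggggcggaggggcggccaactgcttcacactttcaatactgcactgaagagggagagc
The Klf15 window holds the hexamer 3 times and the other windows once each. Over the reversing genes 14 of 122 windows held it (11.5%), where 10.7% of all windows did.

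Other motifs were searched on both strands in the same windows. The GC box GGGGCGGGG, read by Sp factors, was in 42 windows of the reversing genes (34.4%) and in 23.4% of all. The median GC content of the windows was 64.7% against 61.7%. The interferon-stimulated response element, which ISGs are known to carry, was in the windows of Ccdc92 and Zfp169 alone, 1.64% against 2.77% of all. The Ets motif CCGGAAG in 9.02% against 20.6%, the AP-1 motif TGANTCA in 1.64% against 4.09%, the Rbpj motif TGGGAA of Notch signalling in 18.9% against 22.1%, and the Tcf motif ATCAAAG of Wnt signalling in 1.64% against 2.48%. A forkhead motif, GTAAACA, was in the windows of Bahcc1, Gper1, Hbp1 and Stx2, 3.28% against 2.34%. The cAMP response element TGACGTCA was in the window of Btg2 alone, 0.820% against 3.60%. A match is a run of letters and not a site of binding, and no window was tested for a factor.

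The windows of Bahcc1 and Gper1, both among the genes with the widest reversal, and of Btg2 show these letters in capitals, the forkhead motif in the first pair (on the opposite strand in Bahcc1) and the cAMP response element in Btg2. They are at chr11:120232697-120232996 (plus), chr5:139422929-139423228 (plus) and chr1:134079106-134079405 (minus).
Bahcc1: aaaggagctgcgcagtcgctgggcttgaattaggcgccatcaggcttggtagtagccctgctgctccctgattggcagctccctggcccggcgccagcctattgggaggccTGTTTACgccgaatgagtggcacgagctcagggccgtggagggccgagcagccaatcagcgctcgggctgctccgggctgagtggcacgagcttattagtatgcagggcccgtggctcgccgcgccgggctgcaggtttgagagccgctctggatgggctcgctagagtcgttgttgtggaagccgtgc
Gper1: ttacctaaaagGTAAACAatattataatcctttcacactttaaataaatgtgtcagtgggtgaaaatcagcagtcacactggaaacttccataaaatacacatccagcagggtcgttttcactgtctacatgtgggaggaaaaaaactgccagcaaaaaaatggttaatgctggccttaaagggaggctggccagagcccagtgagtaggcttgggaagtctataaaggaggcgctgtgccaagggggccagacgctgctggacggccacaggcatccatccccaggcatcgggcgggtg
Btg2: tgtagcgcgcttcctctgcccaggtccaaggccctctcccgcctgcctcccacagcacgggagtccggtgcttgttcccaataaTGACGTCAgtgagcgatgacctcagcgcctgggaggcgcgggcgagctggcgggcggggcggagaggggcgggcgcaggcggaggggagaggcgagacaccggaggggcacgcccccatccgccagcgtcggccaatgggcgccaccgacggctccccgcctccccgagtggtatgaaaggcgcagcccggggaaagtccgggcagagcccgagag

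**Figure D4:**
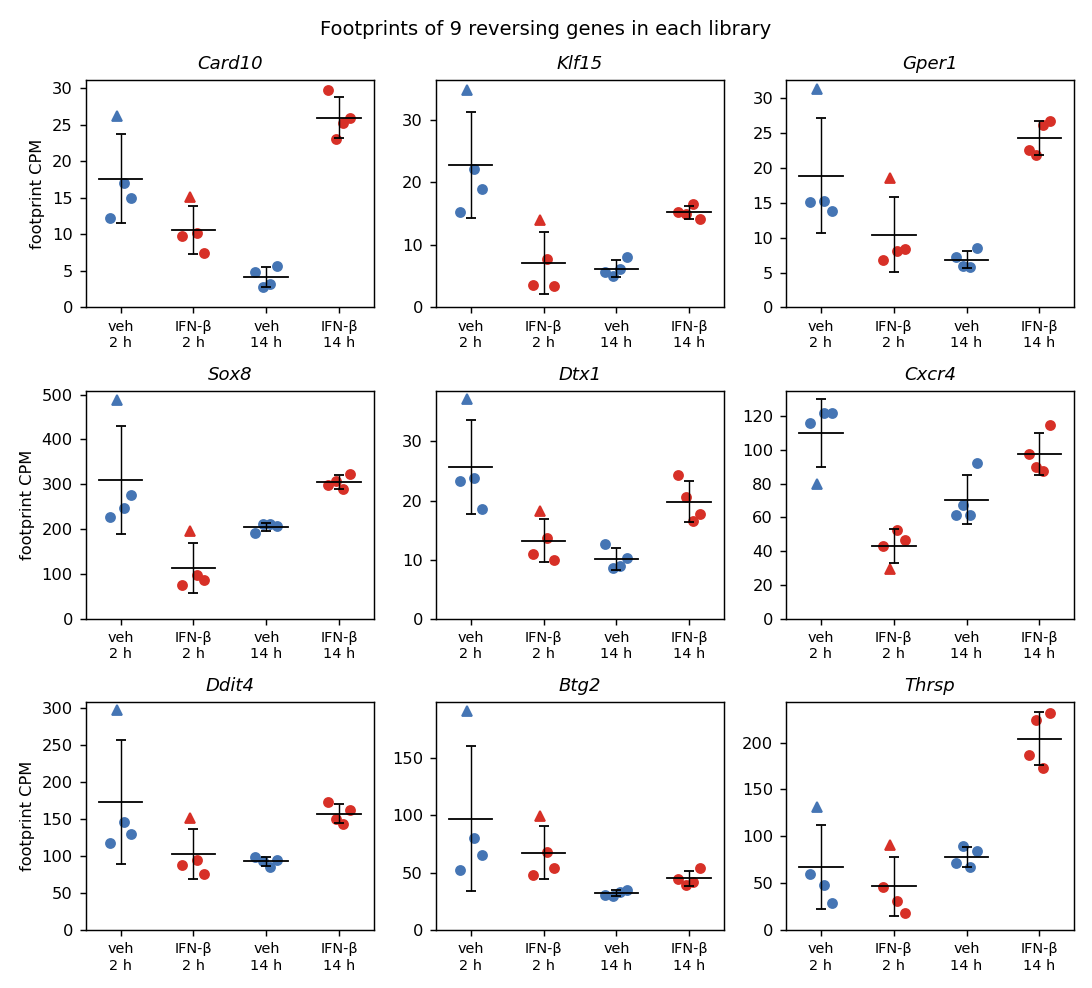
Footprint level in CPM in each of the 16 libraries for 9 reversing genes. Points are libraries, triangles mark replicate 3 at 2 h, bars give the mean ± SD of 4 libraries, and in each gene the IFN-β mean lies below the vehicle mean at 2 h and above it at 14 h.

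The 15 genes with the widest reversal, from the value at 14 h minus that at 2 h, were Card10, Klf15, Gper1, Klhdc7a, Bahcc1, Gramd1b, Sox8, Pgpep1, Fam53b, Elfn2, Arhgef19, Thrsp, Fam102a, Dtx1 and Apc2. They hold a scaffold, a membrane receptor, transcription factors, a sterol carrier and regulators of Notch and Wnt. Their levels by library are given in replicate order, 2, 3, 5 and 6 at 2 h and 1 to 4 at 14 h.

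Card10 (ENSMUSG00000033170, on the minus strand of chr15:78775138-78803042 in GENCODE M21 on GRCm38), a scaffold that links surface receptors to NF-κB, had the highest value at 14 h. Its footprints stood at 12.2, 26.2, 17.0 and 15.0 CPM with vehicle at 2 h and at 9.79, 15.1, 10.1 and 7.41 CPM with IFN-β. At 14 h they were at 4.85, 2.73, 3.25 and 5.71 CPM with vehicle and at 29.8, 23.0, 25.2 and 25.8 CPM with IFN-β. The groups overlapped at 2 h, where the rule value was -0.70, and lay far apart at 14 h, where it was 2.51. The vehicle level at 14 h over that at 2 h had a log2 of -1.96, and this gene had too few total RNA counts to be tested.

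Klf15, a Krüppel-like factor that responds to glucocorticoids and governs fuel use, had the lowest value at 2 h. Its footprints were at 15.3, 34.7, 22.1 and 19.0 CPM with vehicle at 2 h and at 3.55, 13.9, 7.79 and 3.38 CPM with IFN-β, a rule value of -1.60. At 14 h they were at 5.59, 5.06, 6.12 and 8.09 CPM with vehicle and at 15.2, 14.9, 16.6 and 14.1 CPM with IFN-β, a value of 1.23. The groups did not overlap at either time, and replicate 3 was the highest in both groups at 2 h.

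Sox8, a factor of the SoxE group in glial precursors, followed the same course at a higher count. It stood at 226, 487, 247 and 276 CPM with vehicle and at 74.7, 195, 96.6 and 86.2 CPM with IFN-β at 2 h, a rule value of -1.45. At 14 h vehicle libraries had 191, 212, 210 and 206 CPM and IFN-β libraries 299, 308, 289 and 324 CPM, a value of 0.57. Both times were without overlap.

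Bahcc1, a chromatin protein that reads a repressive histone mark, had tight groups at 2 h. It was at 42.0, 42.2, 38.6 and 39.5 CPM with vehicle and at 15.7, 16.5, 11.9 and 13.4 CPM with IFN-β, a rule value of -1.47. By 14 h the level was 95.2, 61.4, 66.6 and 57.8 CPM with vehicle and 132, 116, 97.4 and 79.8 CPM with IFN-β, a value of 0.59. Here the groups overlapped at 14 h, and both were above their 2 h levels.

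The oestrogen receptor Gper1, a G-protein-coupled receptor, was the third by reversal. Its vehicle libraries at 2 h had 15.2, 31.4, 15.3 and 13.9 CPM and its IFN-β libraries 6.85, 18.6, 8.06 and 8.37 CPM, a rule value of -0.83. Its vehicle libraries at 14 h had 7.27, 5.97, 5.75 and 8.47 CPM and its IFN-β libraries 22.7, 21.9, 26.2 and 26.7 CPM, a value of 1.76. The overlap at 2 h came from IFN-β replicate 3, the only IFN-β library above the lowest vehicle library.

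Thrsp, a regulator of lipid synthesis known to mark slowly dividing NSCs, varied more between replicates at 2 h than between treatments. It was at 59.5, 131, 47.9 and 28.2 CPM with vehicle and at 46.0, 90.2, 30.7 and 18.0 CPM with IFN-β, so that each pair was lower with IFN-β while the groups overlapped. At 14 h it was at 71.4, 89.2, 67.0 and 84.3 CPM with vehicle and at 187, 224, 173 and 232 CPM with IFN-β, a rule value of 1.38 with the groups far apart.

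The remaining leaders ran between these cases. Klhdc7a, a kelch-domain protein, had rule values of -0.92 and 1.32, and its IFN-β libraries had 4.44 to 5.63 CPM at 2 h and 34.1 to 39.9 CPM at 14 h. Gramd1b, which carries sterol from the plasma membrane to the endoplasmic reticulum, had -1.14 and 0.88, and the peptidase Pgpep1 had -1.05 and 0.95, both without overlap at either time. Fam53b had -1.34 and 0.65, Elfn2, a synaptic membrane protein, -1.20 and 0.75, Fam102a -0.81 and 1.09, and the exchange factor Arhgef19 -0.61 and 1.32. Dtx1 and Apc2 are given with their pathways.

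The genes below are ordered by role, in groups formed after the members were known, so a group's count and median describe it and are no evidence on its role. Of 8 G-protein-coupled receptors, the median rule values were -0.79 and 0.80, with no overlap of the groups for 2 at 2 h and 6 at 14 h. Over all genes IFN-β lay below without overlap for 7.05% at 2 h and above for 22.1% at 14 h, and over the reversing genes for 67 and 126 of 146, a background for this count in each group below. Cxcr4, the receptor by which NSCs and their progeny read the chemokine Cxcl12, was at 116, 80.0, 122 and 122 CPM with vehicle and at 43.3, 29.3, 52.7 and 46.5 CPM with IFN-β at 2 h. Cxcr4 at 14 h was at 61.3, 67.2, 61.5 and 92.2 CPM with vehicle and at 97.8, 89.7, 87.4 and 115 CPM with IFN-β, where vehicle replicate 4 reached into the IFN-β range. Its rule values were -1.35 and 0.46. The adenosine receptor Adora2a had -0.48 and 1.30, and its groups overlapped at 2 h. The pituitary adenylate cyclase-activating peptide receptor Adcyap1r1 had -0.78 and 0.54, Gprc5b, an orphan receptor, -1.01 and 0.41, the adhesion receptor Adgra1 -0.80 and 0.83, and the orphans Gpr146 and Gpr162 -0.51 and 0.84 and -0.54 and 0.77. A separate list, formed by name pattern, held 34 measured receptors and of these 8 only Adgra1, Gprc5b, Gpr146 and Gpr162. Its medians were -0.16 and 0.11. Over all genes 1.47% reversed, which is the background for the count of reversing genes in every list below.

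Wnt and Notch signalling held 7 reversing genes. The median rule values of the 7 were -0.84 and 0.79, and the groups did not overlap for 6 of them at 2 h and for 7 at 14 h. Axin2, a target and feedback inhibitor of Wnt signalling, was at 42.5, 55.6, 44.9 and 39.6 CPM with vehicle and at 19.8, 36.5, 26.0 and 20.3 CPM with IFN-β at 2 h. The level of Axin2 at 14 h was 45.3, 38.5, 49.5 and 41.0 CPM with vehicle and 65.6, 67.0, 60.9 and 61.5 CPM with IFN-β. Its vehicle level was about the same at both times, with a log2 of -0.07. The ligand Wnt7a had rule values of -0.86 and 0.41. Apc2, a relative of the scaffold Apc, had -0.98 and 0.87, the β-catenin coactivator Bcl9l -0.84 and 0.87, and Jup, plakoglobin, -0.73 and 0.79. Dtx1, a Deltex ubiquitin ligase that acts on Notch, was at 23.3, 37.1, 23.8 and 18.6 CPM with vehicle and at 11.0, 18.2, 13.7 and 9.99 CPM with IFN-β at 2 h. For Dtx1 at 14 h the libraries had 12.7, 8.61, 8.87 and 10.2 CPM with vehicle and 24.4, 20.6, 16.6 and 17.8 CPM with IFN-β, rule values of -0.94 and 0.94. Its relative Dtx4 had -0.81 and 0.56. The lists of both pathways had smaller medians. Over 18 measured Notch genes, of which Dtx1 and Dtx4 reversed, the medians were -0.38 and 0.14, and edgeR called 4 lower and 0 higher of 22 tested at 2 h and 1 lower and 8 higher of 21 at 14 h. Over all genes it called 2.01% lower and 5.25% higher at 2 h and 26.3% lower and 26.2% higher at 14 h, which is the background for the calls of every list here. Over 23 measured Wnt genes, of which Axin2 and Wnt7a reversed, they were -0.27 and -0.05, with 5 lower and 1 higher of 27 at 2 h and 3 lower and 7 higher of 24 at 14 h.

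The 12 nuclear factors had median rule values of -0.56 and 0.56, with 8 free of overlap at 2 h and 10 at 14 h. Next to Klf15, Sox8 and Bahcc1 stood a pair of clock factors, the activator Arntl with -0.61 and 0.44 and the repressor Bhlhe41 with -0.54 and 0.66. The retinoid receptors Rxra and Rarb had -0.83 and 0.53 and -0.57 and 0.53. Mxd4, which competes with Myc for Max, had -0.47 and 0.64, and Hbp1, a repressor of cell cycle and Wnt target genes, -0.42 and 0.71. Srebf1, the activator of lipid synthesis genes, was the only reversing gene on a list of 24 sterol synthesis genes. It stood at 483, 439, 488 and 556 CPM with vehicle and at 331, 311, 323 and 388 CPM with IFN-β at 2 h, and at 478, 430, 509 and 540 CPM and 655, 597, 652 and 698 CPM at 14 h. Its rule values were -0.54 and 0.41, while the list had a median of -0.37 at 14 h with 17 of 24 called lower and 1 higher. On the clock list 2 of 16 reversed, and its medians were -0.43 and -0.03. The zinc finger genes were represented by 5 of 261, led by Zfp395 with -0.92 and 0.45, Zfp532 with -0.58 and 0.61 and Zfp867 with -0.51 and 0.57.

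Brakes on growth, responders to stress and the insulin receptor adaptor Irs2 made a group of 8. Its median rule values were -0.53 and 0.47, and 4 of the 8 were free of overlap at 2 h and all 8 at 14 h. Ddit4, a stress-induced inhibitor of mTOR, was at 118, 296, 146 and 130 CPM with vehicle and at 87.8, 151, 93.9 and 75.2 CPM with IFN-β at 2 h. Ddit4 at 14 h was at 98.6, 92.7, 84.2 and 94.0 CPM with vehicle and at 172, 149, 143 and 162 CPM with IFN-β. Its rule values were -0.75 and 0.76, with overlap at 2 h alone. The sestrins Sesn2 and Sesn3, which also restrain mTOR, had -0.43 and 0.44 and -0.62 and 0.44, and Irs2, an adaptor of the insulin receptor, -0.52 and 0.43. Btg2, an antiproliferative protein, was at 52.2, 191, 79.8 and 65.6 CPM with vehicle and at 48.1, 99.5, 67.9 and 54.1 CPM with IFN-β at 2 h. At 14 h it was at 30.0, 29.8, 33.4 and 35.0 CPM with vehicle and at 44.3, 39.0, 41.8 and 54.1 CPM with IFN-β. Its 2 h value of -0.52 rested on vehicle replicate 3, without which it was 0.033. Trp53inp1, a target of p53 in stress, had -0.50 and 0.46, Zfp36l2, which binds AU-rich mRNA, -0.55 and 0.56, and Dab2ip, which restrains Ras, -0.53 and 0.59. Of the lists these genes belong to, 3 of 18 measured FoxO targets reversed (Irs2, Klf15 and Sesn3), 2 of 20 p53 targets, 2 of 20 genes of the stress responses to unfolded protein and amino acid lack, and 2 of 17 brakes of quiescence (Btg2 and Mxd4). Of all genes 1.47% reversed. The lists were chosen with earlier results of these data known, so these counts are a description. The FoxO targets had medians of -0.18 and 0.18, and edgeR called 0 lower and 1 higher of 20 at 2 h and 3 lower and 11 higher of 19 at 14 h, where 26.3% and 26.2% of all genes were. Of 21 immediate early genes Btg2 and Ier3 reversed, Ier3 with -0.55 and 0.50, and of 23 genes of the feedback on ERK Dusp7, a phosphatase of ERK, with -0.93 and 0.44, and Fgfr2.

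Growth factor receptors and other surface proteins numbered 10, with medians of -0.53 and 0.65. The receptor tyrosine kinases Tyro3 and Mertk, which act in the uptake of dying cells and damp inflammation, had rule values of -0.62 and 0.66 and of -0.42 and 0.66. Fgfr2, a receptor for fibroblast growth factors, was at 25.5, 85.4, 34.6 and 34.7 CPM with vehicle and at 11.7, 35.7, 15.2 and 16.6 CPM with IFN-β at 2 h, so replicate 3 with IFN-β was above 3 vehicle libraries. The 14 h libraries had 12.9, 11.6, 11.4 and 15.1 CPM with vehicle and 14.5, 18.1, 16.4 and 19.0 CPM with IFN-β, also with overlap. The guidance receptor Unc5b had -0.40 and 0.92, the guidance ligand Sema4b -0.94 and 0.65, the coreceptor Gfra2 of glial-derived factors -0.41 and 0.45, and the integrin subunit Itgb5 -0.41 and 0.42. Lingo1, Rtn4rl1 and Omg, which take part in the inhibition of axon growth by myelin, had -0.85 and 0.46, -0.59 and 0.70 and -0.47 and 0.73.

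Of the 9 genes of lipid and fuel metabolism 3 were free of overlap at 2 h and 9 at 14 h, with medians of -0.55 and 0.55. Besides Thrsp they held the hormone-sensitive lipase Lipe with -0.44 and 0.83, the pyruvate dehydrogenase kinase Pdk2 with -0.55 and 0.48, the glycogen phosphorylase Pygb with -0.50 and 0.47, the acyl-CoA thioesterase Acot11 with -0.59 and 0.60, the dehydrogenase Hsd17b11 with -0.44 and 0.52, the vitamin E carrier Ttpa with -0.58 and 0.80, the hormone precursor Enho with -0.77 and 0.43, and Abhd15 with -0.98 and 0.55. Pygb was at 77.6, 310, 98.8 and 80.7 CPM with vehicle at 2 h and at 54.6, 205, 81.8 and 59.6 CPM with IFN-β, so its 2 h difference was smaller than that between replicate 3 and the others.

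Regulators of small GTPases and the cytoskeleton were 11, with medians of -0.59 and 0.50. The Cdc42 exchange factor Fgd4 was at 13.9, 13.4, 9.99 and 10.7 CPM with vehicle and at 5.75, 5.04, 3.69 and 2.90 CPM with IFN-β at 2 h. At 14 h it was at 20.9, 21.3, 17.6 and 21.4 CPM with vehicle and at 32.1, 32.6, 24.1 and 24.1 CPM with IFN-β, so both times were free of overlap, at -1.37 and 0.47. Rapgef3, an exchange factor for Rap that cAMP opens, had -1.01 and 0.52, and the adaptors Bcar3 and Efs, of the Cas signalling complex at adhesions, -1.11 and 0.50 and -0.40 and 0.49. The exchange factors Arhgef10l and Arhgef17 had -0.78 and 0.59 and -0.59 and 0.50, the cofilin phosphatase Ssh1 -0.41 and 0.44, tensin Tns1 -0.45 and 0.86, Shroom2 -0.59 and 0.46 and Cdc42ep1, which binds Cdc42, -0.55 and 0.43.

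In NF-κB and innate signalling Traf3, an adaptor of the interferon-inducing pathways, had -0.64 and 0.52, Tril, an accessory protein of Toll-like receptors, -0.66 and 0.45, and the ubiquitin ligase Trim8 -0.60 and 0.41. Of 42 measured ISGs 0 reversed, and edgeR called 42 of 44 higher at 2 h and 48 of 48 at 14 h. The 5 ion channels had medians of -0.67 and 0.53, with the potassium channels Kcnc1 at -0.93 and 0.53 and Kcnh2 at -0.54 and 0.48, the nicotinic receptor subunit Chrna4 at -0.76 and 0.89 and Tmem38a, a cation channel of internal stores, at -0.44 and 0.70. Kcnj10, the inward rectifier of glia, was at 58.4, 389, 148 and 105 CPM with vehicle and at 36.5, 246, 101 and 55.9 CPM with IFN-β at 2 h, and at 34.3, 27.3, 29.1 and 21.3 CPM and 36.9, 39.3, 40.0 and 38.7 CPM at 14 h. Its replicates at 2 h spread over more than its treatment. Solute carriers were 2 of 159, Slc48a1, a haem transporter, at -0.51 and 0.53 and Slc22a23 at -0.48 and 0.48. Ubiquitin adaptors were 3 of 153, with Fbxl16 at -0.52 and 0.50 and Fbxo44 at -0.42 and 0.40 beside Trim8, and the tetraspanin Tspan9 had -0.53 and 0.44.

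Lists of few genes often hold no member when 1.47% of all genes are members. With 0 among their measured genes were the genes of BMP and TGF-β signalling (0 of 23), hedgehog (0 of 8), neurogenic factors (0 of 10), stem cell and astroglial genes (0 of 21), the Hippo pathway (0 of 16), the cell cycle (0 of 38), lysosome and autophagy (0 of 34), extracellular matrix (0 of 34), chromatin (0 of 41), cadherins (0 of 34), homeobox and forkhead factors (0 of 35), ribosomal proteins (0 of 85) and histones (0 of 69). The hedgehog genes had the lowest median of these at 2 h, -0.63, and one of 0.15 at 14 h. The cell cycle genes had medians of -0.08 and -1.48, and edgeR called 37 of 38 lower at 14 h.

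Summed over a list, markers of the oligodendrocyte lineage were lower with IFN-β at 2 h and higher at 14 h, while single markers differed. The summed footprints of 20 markers stood between 2893 and 3592 CPM with vehicle and between 1874 and 2390 CPM with IFN-β at 2 h, and between 2590 and 3011 CPM and 3035 and 3733 CPM at 14 h. Most of the sum came from the factors Olig1, with rule values of -0.59 and 0.13, and Olig2, with -1.02 and 0.10, while the myelin genes Mbp, Mog and Mag had means under 1 CPM in all 4 groups. Cnp had -0.30 and 1.18, Cspg4 -0.22 and 0.04, Nkx2-2 -1.04 and -0.16, and Bcas1 0.38 and 0.07. At 14 h the mean of Cnp was 109 CPM with vehicle and 248 CPM with IFN-β, and that of Sox8 205 and 305 CPM. Of the 7 measured with 50 counts, Sox8 alone met the rule, and edgeR called 4 of 13 lower and 0 higher at 2 h and 1 lower and 2 higher of 12 at 14 h. Their part in the result was not tested.

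The GC content of the coding sequence, which the rule did not use, was higher at the median than over all genes. The median GC content of their coding sequences was 58.2%, with quartiles of 55.0% and 60.4%, against 52.6% over all 9944 genes. Single genes ran from 37.4% to 71.1%, and 120 of the 145 with a coding sequence were above the median of all genes. The median was 55.1% for the 469 genes low at 2 h and not high at 14 h and 55.3% for the 1151 high at 14 h and not low at 2 h, below that of the reversing genes. Their median coding length was 1701 bases against 1449. When footprint levels were adjusted for GC content in each library, 114 genes met the rule, 102 of them among the 146. The part of GC content in the result was not tested otherwise. The median reversing gene had a mean of 210 footprint counts at 2 h and 242 at 14 h. They lay on 20 chromosomes, 145 were protein coding, and 63 (43.2%) overlapped a gene on the opposite strand, as did 44.7% of all.

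**Figure D5:**
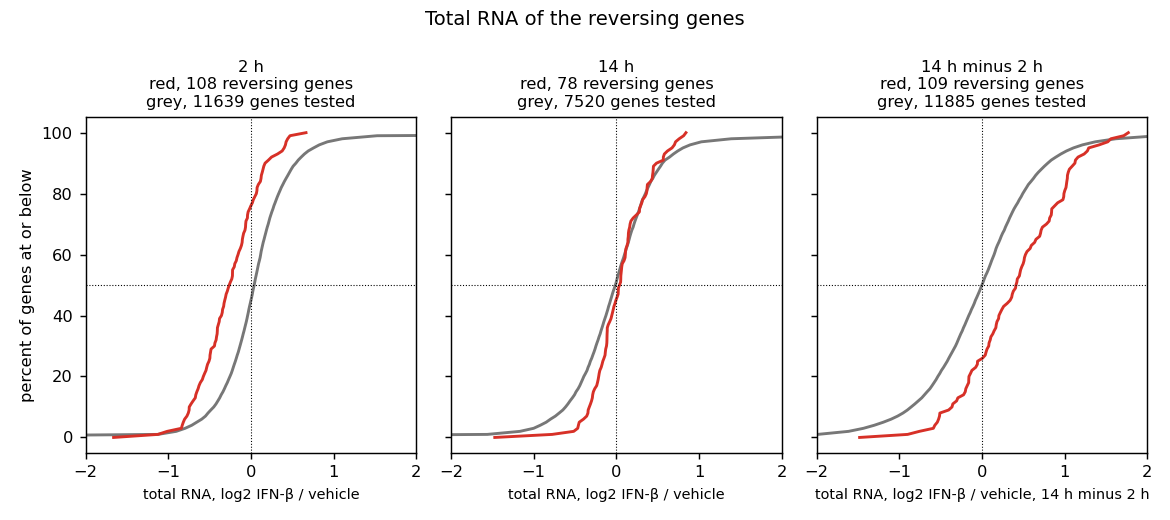
Cumulative share of genes by log2 of IFN-β over vehicle in total RNA, in edgeR's fits of 2 h, of 14 h and of the difference between the times (14 h minus 2 h), for the reversing genes tested (red) and all genes tested (grey). At 2 h the reversing genes lie to the left, with a median of -0.26 against 0.04, and at 14 h both curves meet near 0, with medians of 0.04 and -0.01, while the difference lies to the right, with 0.41 against 0.00.

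Total RNA was measured in the same lysates and was not used by the rule. What differs between cultures can enter both measures, so total RNA is not independent of the choice. No reversing gene passed the test in it at 2 h, where few of all genes did. Coverage was thin, with a median over the 146 of 24.7 counts per library at 2 h and 10.3 at 14 h, so that 108 could be tested at 2 h and 78 at 14 h. At 2 h edgeR with Benjamini-Hochberg adjustment over all genes called 0 of 108, where 0.0773% of all genes were called lower and 0.722% higher, and DESeq2 called 0 as well. At an unadjusted p under 0.05, 11 were lower and 1 higher, where 3.48% of all genes were lower and 3.77% higher. With total counts as the only scaling, 0 were lower and 0 higher at that p, where 0.670% and 3.29% of all genes were. The median log2 of IFN-β over vehicle was -0.26 over the 108 and 0.04 over all, and 82 of the 108 (75.9%) were below 0, where 44.9% of all genes were. Of the genes low at 2 h and not high at 14 h, chosen from the same footprints, 71.4% were below 0. With total counts alone the medians of the 108 and of all genes became -0.05 and 0.23, with 61 of 108 below 0. The distance stayed and the sign depended on the scaling. In the main fit the scaling factor of vehicle replicate 5 was 0.41, and 1.02 to 1.29 in the other libraries. A low factor raises a library's normalised CPM. Values ran from -1.66 for Fgfr2 to 0.67 for Trp53inp1. The Fgfr2 value rested on vehicle replicate 5, at 47697 normalised CPM where the other vehicle libraries had 5439, 6554 and 6637, and was -0.26 without it. Fgfr2 as annotated spans 33 genes on the opposite strand, so reads counted with it may be theirs.

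At 14 h the total RNA of the reversing genes was spread around that of all genes. Of 78 tested 0 were called higher and 1 lower, where 3.47% and 2.83% of all genes were. At an unadjusted p under 0.05, 6 were higher and 1 lower, against 8.95% and 9.91% of all. Their median was 0.04 and that of all genes -0.01, with 36 of 78 (46.2%) below 0, where 51.2% of all genes were. The genes high at 14 h and not low at 2 h had a median of 0.13 in total RNA at 14 h and of 0.15 at 2 h, and those low at 2 h and not high at 14 h had -0.16 at 2 h and -0.05 at 14 h.

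The gene called at 14 h was Gper1, and its total RNA went against its footprints. It was at 5.16, 20.2, 19.7 and 14.9 normalised CPM with vehicle and at 4.07, 4.30, 4.40 and 7.88 with IFN-β, which gave a log2 ratio of -1.47 with a standard error of 0.40 and an adjusted p of 0.0350 in edgeR. Vehicle replicate 1 lay within the range of the IFN-β libraries. Vehicle replicate 3, at 19.7, had a low scaling factor of 0.49, which raised its normalised CPM. The call was lost in 6 of the 8 fits without a single library and with total counts alone (adjusted p = 0.0535), and Gper1 overlaps a gene on the opposite strand whose reads may be counted with it, since the strand setting of the counting is not given.

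The reversal itself was tested in total RNA as the difference of the 14 h and the 2 h contrast. Of 109 reversing genes tested 1 was called higher, where 0.530% of all genes were called higher and 0.109% lower, and at an unadjusted p under 0.05, 14 were higher and 1 lower against 5.01% and 4.34% of all. With total counts alone 2 were higher and 1 lower, against 1.56% and 2.91% of all. The median difference was 0.41 over the reversing genes and 0.00 over all, or 0.23 and -0.16 with total counts alone. Under the main scaling 28 of 109 (25.7%) were below 0, where 50.0% of all genes were. The gene called was Mob3b, of the Mob family of kinase-binding proteins, at chr4:34949074-35157484 on the minus strand. Its total RNA was at 20.9, 15.9, 17.6 and 14.6 normalised CPM with vehicle and at 8.79, 7.56, 11.4 and 10.6 with IFN-β at 2 h, and at 11.1, 5.32, 10.6 and 11.2 with vehicle and 16.3, 16.5, 12.5 and 22.2 with IFN-β at 14 h. As in its footprints, IFN-β was below vehicle at 2 h and above it at 14 h, and the groups did not overlap at either time. The difference was 1.73 with a standard error of 0.36 and an adjusted p of 0.0249 in edgeR, while neither time passed alone (adjusted p = 0.246 and 0.113). With total counts alone the adjusted p was 0.749, and Mob3b too overlaps genes on the opposite strand. DESeq2 called Mob3b and Bahcc1, which also overlaps an opposite-strand gene.

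No member of a role group passed the test in total RNA at 2 h, and differences between the groups were not tested. Below 0 were 44.9% of all genes and 75.9% of the reversing genes. With total counts alone the median of all genes was 0.23, and their share below 0 is not given here. Of the nuclear factors all 12 tested were below 0, at a median of -0.55 on the log2 scale, and 11 with total counts alone. Bahcc1 was at 29.5, 35.6, 26.0 and 30.4 normalised CPM with vehicle and at 12.5, 21.5, 16.6 and 20.3 with IFN-β, without overlap, a log2 ratio of -0.78 with a standard error of 0.25 that did not pass (adjusted p = 0.350). Sox8 had -0.62 with a standard error of 0.26 (adjusted p = 0.609 in edgeR). Bahcc1 and Sox8 each overlap a gene on the opposite strand, so their total RNA may hold its reads. Of the G-protein-coupled receptors 6 of 6 tested were below 0 under both scalings, and of the Wnt and Notch genes 5 of 6 and 4 with total counts alone, among them Dtx1 at -1.04 with a standard error of 0.36 (adjusted p = 0.420 in edgeR). Of the surface proteins 4 of 9 were below 0, with a median of 0.01, and 3 with total counts alone. Below 0 were also 4 of 6 genes in the group of brakes, stress responders and Irs2, and 3 with total counts alone. Of the lipid and fuel genes 4 of 5 were below 0, and 2 with total counts alone. So were 7 of 10 regulators of GTPases and the cytoskeleton, 2 of 3 genes of NF-κB signalling and 2 of 3 ion channels. With total counts alone these counts were 5, 1 and 2, so the sign in most of these groups depended on the scaling. Without all genes that overlap another on the opposite strand, the median over the 56 reversing genes left was -0.32 at 2 h against 0.00 over all, and 0.10 against -0.01 over the 35 left at 14 h.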

How the data were processed

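Per the labels and the study's methods, the authors deposited raw counts per gene for 16 footprint and 16 total RNA libraries, prepared from the same lysates. Reads were trimmed with Trim Galore 0.4.4 and mapped with Bowtie 0.12.7 (submitters' processing notes), duplicates were removed, and reads were counted with SummarizeOverlaps in the mode Union. The strand setting is not given in the sources used here. Removal of duplicates can compress high counts of short footprints.

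Footprint CPM and the rule were computed in Python 3.11.15 (pandas 2.3.3, numpy 2.4.6, figures with matplotlib 3.10.9). Total RNA was tested with edgeR 4.0.16 in R 4.3.3: TMM scaling, a minimum of 10 counts in 4 or more libraries, two-sided quasi-likelihood test, Benjamini-Hochberg over all genes tested, threshold 0.05. DESeq2 1.42.0, total counts alone, other filters, single libraries left out and the replicate number as a block were alternatives. Normalised CPM are CPM on TMM library sizes. In total RNA the TMM factor was 0.41 for vehicle replicate 5 at 2 h and 0.49 for vehicle replicate 3 at 14 h. The other libraries had 1.02 to 1.30. Normalisation sets total output equal, so a change in it is not seen.

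In footprints, deviations from group means correlated within every same-number pair (0.72, 0.87, 0.47 and 0.63 at 2 h, 0.49, 0.30, 0.26 and 0.53 at 14 h). Libraries of the same number were therefore taken as pairs. The labels do not state pairing, and correlations between different numbers were not computed. In total RNA the same-number correlations ranged from -0.66 to 0.54, so pairing was not seen there. The same lysates gave both kinds of library and total RNA counts were thin, so this does not show that pairing is absent.

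Members, gene lists and role groups were chosen with earlier results of these data known. Named are the 15 genes with the widest reversal, members on lists given by symbol, the first 3 on lists given by pattern, the genes at each threshold and those called in total RNA. Other members of the role groups, and the 16-library values shown, were chosen after the values were seen. Gene positions are from GENCODE M21. Some items are not reported here.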

Additional observations from a re-analysis of the deposited data

Results flagged for a closer look

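Among the 15 genes with the widest reversal, each group of 4 footprint libraries was searched for a single library far from the others, 60 groups in all. Chance singles out about 1 group in 20, and 5 were singled out here, 4 of them in replicate 3 at 2 h. Gper1 was at 31.4 CPM in vehicle replicate 3 at 2 h, where the other vehicle libraries had 13.9 to 15.3 CPM, and at 18.6 CPM in IFN-β replicate 3, where the others had 6.85 to 8.37 CPM. Pgpep1 was at 101 CPM in vehicle replicate 3 at 2 h, where the others had 75.8 to 77.8 CPM. Fam102a was at 34.3 CPM in IFN-β replicate 3 at 2 h, where the others had 13.5 to 15.8 CPM. Fam53b was at 15.7 CPM in vehicle replicate 1 at 14 h, where the others had 13.1 to 13.3 CPM.

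Of the reversing genes Mob3b alone differed between the times in the edgeR test of total RNA, with a difference of the log2 fold changes of 1.73.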

How the results depend on the processing

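With a mean of 200 or more counts required, 71 genes met the rule. Leaving out a single footprint library gave 111 to 253 genes. Of 94 named reversing genes, 3948 recomputed rule values held 6 changes of sign, all at 2 h without vehicle replicate 3. Without that library 137 of all 146 reversing genes were still below 0 at 2 h and above 0 at 14 h. In each other setting all 146 were. Without a single library the 2 h value ran from -1.07 to 0.032 for Thrsp, from -1.10 to 0.20 for Omg, from -0.77 to 0.025 for Hbp1, from -1.43 to 0.080 for Kcnj10, from -0.77 to 0.033 for Btg2 and from -1.11 to 0.23 for Pygb. Over all genes, footprint calls at 2 h numbered 878, and 3538 with the replicate block, 1671 without both libraries of replicate 3 and 517 to 953 without a single library. Total RNA calls at 2 h numbered 93, and 169 in DESeq2, 174 with no filter, 44 at a mean of 50 counts, 31 without opposite-strand genes and 30 to 74 without a single library. At 14 h they numbered 474, and 269 with total counts alone, 247 at a mean of 50 counts, 104 without opposite-strand genes and 171 to 450 without a single library. Reversing genes called in total RNA at 2 h numbered 0, and 1 with no filter (Cir1). At 14 h they numbered 1, and 0 with total counts alone, at a mean of 50 counts or without opposite-strand genes, 2 with no filter (Gper1 and Them6) and 0 to 1 without a single library. The difference between the times was called for 76 genes, and for 174 in DESeq2. The replicate block gave 63 total RNA calls at 2 h, 519 at 14 h and 63 for the difference, though pairing by number was not seen in total RNA. The GC adjustment and leaving out both libraries of replicate 3 were chosen after seeing the data. Causes were not tested. Low total RNA counts limit the tests, with 39 reversing genes under a mean of 10 counts at 2 h and 72 at 14 h.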
